A study of Mus musculus with 15 samples.

Results

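The nuclear genes that encode the subunits of respiratory complexes II, III, IV and V were followed in bulk RNA-sequencing of cultured bone marrow mesenchymal stromal cells (MSCs) with and without the taurine transporter TauT. Members were defined by gene symbol and level, and the set was chosen with earlier results of these data known. The symbols were *Sdha*, *Sdhb*, *Sdhc* and *Sdhd* for complex II, those that begin with Uqcr for complex III, with Cox4 to Cox8 for complex IV and with Atp5 for complex V. Of the 56832 genes in the count table, 60 carried such a symbol, 12 of these were left out as pseudogenes marked -ps, and 48 remained. A level of at least 1 CPM, the count of a gene scaled to a fixed total for each library, on average over all libraries, kept 43 genes, with 4 in complex II, 8 in complex III, 14 in complex IV and 17 in complex V. All 43 were among the 18263 genes that passed the filter on low counts and were tested.

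The respiratory chain sits in the inner membrane of mitochondria. Complex II passes electrons from succinate to ubiquinone and is also a citric acid cycle enzyme, complex III passes them on to cytochrome c, complex IV hands them to oxygen, and complex V (ATP synthase) uses the proton gradient that the chain builds to make ATP. Complex II is encoded wholly by nuclear genes, while complexes III, IV and V also hold subunits encoded by mitochondrial DNA, so that both genomes have to supply each assembled complex. Taurine is used in mitochondria to modify tRNAs that read part of the mitochondrial code.

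The 15 libraries came from MSCs of 16 week old mice on the C57BL/6J background, either TauT+/+ or TauT-/-, the latter lacking TauT in all tissues. They were labelled as 4 TauT+/+ male, 3 TauT+/+ female, 4 TauT-/- male and 4 TauT-/- female samples. All MSCs were grown from femur and tibia marrow at 2% O2 and enriched by depletion of CD45, Ter119 and CD31 positive cells or by flow sorting. The sources used here do not say whether each library came from a separate mouse, so that p-values measure the spread between these libraries, which may in part be technical.

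The values are numbers of reads counted on each gene, shown here as CPM after TMM scaling for library size. Total counts ran from 69764291 to 101575071 under the male label and from 12761107 to 20781070 under the female label, so that depth and sex label cannot be told apart, while both genotypes stood at each depth. *Slc6a6*, the gene of TauT, ranged from 586 to 2655 CPM in TauT+/+ and from 392 to 1571 CPM in TauT-/- libraries, which overlap, and groups are therefore named by their labels. In 3 libraries the levels of *Xist* and *Ddx3y*, which mark female and male cells, did not match the label (TauT+/+ male 1, TauT-/- male 1 and TauT+/+ female 3). TauT-/- male 1 and female 1 differed by only 2.69 times the variance of read sampling, and TauT+/+ male 1 and female 1 by 3.03 times, whereas the next closest of the 105 pairs of libraries stood at 12.4 times. The sources used here do not say whether a close pair is 1 sample sequenced again. If so, the genotypes hold 6 and 7 samples in place of the 7 and 8 libraries printed as n, and the sex labels are not independent. Among 20 macrophage markers, 19 had a log2 fold change above 0 in TauT-/- and 1 (*Cd68*) passed the test in edgeR, where 16 were higher at an unadjusted p under 0.05, while DESeq2 called 10 and voom 8 of them higher. Their summed level was 1669 to 10854 CPM in TauT+/+ and 7806 to 26190 CPM in TauT-/- libraries, and none of them was at 0. The 14 stromal markers summed to 35145 to 51635 CPM in TauT+/+ and 7819 to 48607 CPM in TauT-/-, with 10 of 14 log2 fold changes below 0 and 0 calls in edgeR (1 higher and 3 lower at an unadjusted p under 0.05, 2 lower in DESeq2, 1 higher and 2 lower in voom).

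The comparison asks whether loss of TauT was accompanied by another expression of the genes of the respiratory complexes. *Sdhd*, which encodes a membrane anchor of complex II, was higher in TauT-/- MSCs and was the 1 member of 43 that passed the threshold (adjusted p under 0.05, edgeR), while 0 members passed as lower. Over all tested genes, 0.564% passed as higher and 0.591% as lower. Most members lay on the same side without passing: 39 of 43 had a log2 fold change above 0, where 50.5% of all tested genes did, 4 lay below 0, where 49.5% did, and 18 had an unadjusted p under 0.05 as higher, where 11.8% of all tested genes did. As lower, 0 members had an unadjusted p under 0.05, again against 11.8% of all tested genes. The median log2 fold change was 0.22 over the members and 0.0049 over all tested genes. In bulk RNA, a change in the share of a cell type and a change in RNA per cell cannot be told apart.

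By complex, the median log2 fold change was 0.20 over the 4 genes of complex II, 0.24 over the 8 genes of complex III, 0.29 over the 14 genes of complex IV and 0.13 over the 17 genes of complex V. Log2 fold changes above 0 were found for 4 of 4, 7 of 8, 13 of 14 and 15 of 17 genes. Members with an unadjusted p under 0.05 numbered 2, 6, 6 and 4, all of them higher in TauT-/-. The size of the difference was small everywhere, with a highest log2 fold change of 0.48 and a lowest of -0.34 among the members. The macrophage markers had log2 fold changes above 0 in the same contrast in 19 of 20 cases, and with their mean as a covariate the medians of complexes II, III, IV and V were 0.16, 0.22, 0.28 and 0.13, and *Sdhd* had a log2 fold change of 0.38. That fit called 0 members and 0 other genes in edgeR, and at an unadjusted p under 0.05 it had 11 members higher and 0 lower, where 5.22% of all tested genes were higher and 5.73% lower.

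**Figure D1:**
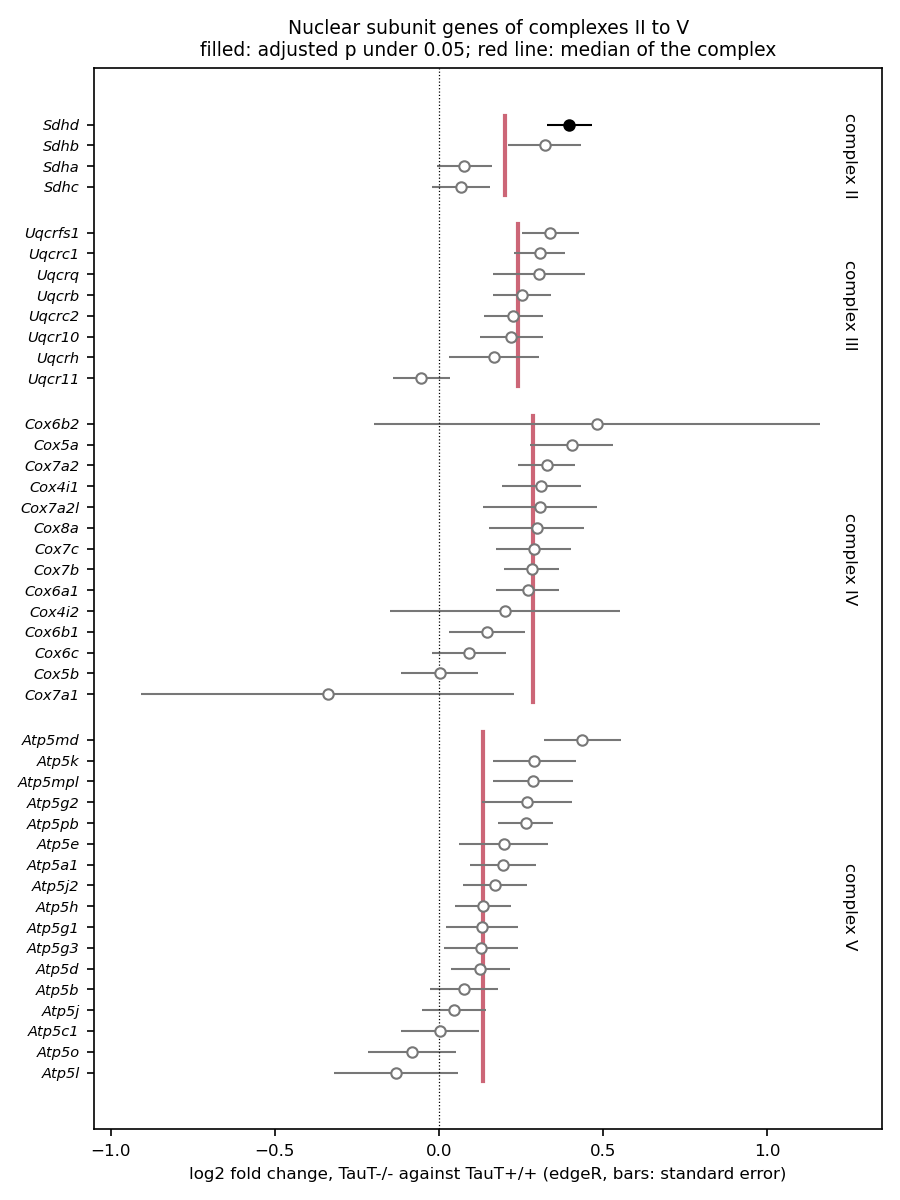
Log2 fold change of TauT-/- against TauT+/+ (x axis) for each of the 43 genes (y axis, grouped by complex), with the standard error from edgeR as bars. The filled point is *Sdhd*, the single gene past an adjusted p of 0.05, and the red lines give the complex medians, which lie between 0.13 and 0.29.

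*Sdhd* had 56.8, 61.5, 64.4 and 56.1 CPM in TauT+/+ male libraries 1 to 4 and 52.9, 55.2 and 55.6 CPM in TauT+/+ female libraries 1 to 3. It had 73.3, 74.6, 85.3 and 75.9 CPM in TauT-/- male libraries 1 to 4 and 68.6, 78.5, 69.4 and 77.1 CPM in TauT-/- female libraries 1 to 4. The genotypes did not overlap, with the lowest TauT-/- library above the highest TauT+/+ library. The mean rose from 57.5 ± 3.99 (SD, n = 7 libraries) to 75.3 ± 5.31 CPM (SD, n = 8 libraries), with a fitted log2 fold change of 0.40 (edgeR adjusted p = 0.0259 at a standard error of 0.069). Within the male label the log2 fold change was 0.37 and within the female label 0.43. In the 15 fits that left out 1 library the log2 fold change stayed between 0.35 and 0.41. The call held in 8 of them, with edgeR adjusted p between 0.0109 and 0.0876 over all 15, and was lost without TauT+/+ male 2, TauT+/+ female 1, 2 or 3, TauT-/- male 1, TauT-/- male 3 or TauT-/- female 3. Without the male-labelled or the female-labelled library of each close pair the log2 fold change was 0.39 and 0.40 with edgeR adjusted p = 0.0703 and 0.1003, and without the 3 libraries that did not match their sex label it was 0.40 with edgeR adjusted p = 0.156.

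*Sdhd* lies on chromosome 9 of GRCm39, chr9:50507642-50515195, on the minus strand, and its exons overlap those of *Timm8b* on the other strand. *Timm8b*, which encodes a chaperone of mitochondrial protein import, had 19.6 ± 3.04 CPM in TauT+/+ (SD, n = 7 libraries) and 25.1 ± 3.39 CPM in TauT-/- libraries (SD, n = 8 libraries), a log2 fold change of 0.38 (edgeR adjusted p = 0.0864). The library protocol describes no step that marks the strand, so reads from the overlap of both genes cannot be told apart. The authors nevertheless counted reads by strand, so a count may lack some of the gene's own reads, by an amount that cannot be told. Such an overlap with a gene on the other strand was annotated for 28 of the 41 members with a position. These overlaps are those of GENCODE M39, whereas the reads were counted on GENCODE M31.

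Nuclear respiratory factor 1 (NRF1) is a transcription factor known to bind promoters of many respiratory genes. Its word GCGCA, any base and GCGC, searched on both strands in windows from 250 bases before to 50 bases after the annotated start, was present for 10 of the 34 members with a window in the RefSeq promoter table (29.4%) and for 5.19% of all 27025 genes in that table. The table was not limited to genes expressed here, while members were kept for their level. The shares here and below therefore compare unlike sets. The 10 members with the word had log2 fold changes from -0.08 (*Atp5o*) to 0.40 (*Sdhd*), with 0.0031 for *Atp5c1*. The windows of *Cox7b*, *Uqcrfs1*, *Cox7a2*, *Cox5a*, *Atp5md* and *Atp5pb* held no such word. Whether the word goes with the difference between genotypes was not tested. The 30 bases around each match are shown for *Sdhd*, the called member, for *Uqcrc1*, a member whose genotypes did not overlap within the male or the female label, and for *Sdha*, a neighbour of *Sdhd* in the same complex with more matches. Sequences run 5′ to 3′ on the strand of the gene, capitals mark the word, and the number in each name is the distance of its first base from the start in RefSeq, which counts as 0.
Sdhd at -79, chr9:50515209-50515238: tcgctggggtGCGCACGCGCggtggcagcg
Uqcrc1 at 5, chr9:108765711-108765740: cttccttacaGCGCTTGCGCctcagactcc
Uqcrc1 at 30, chr9:108765736-108765765: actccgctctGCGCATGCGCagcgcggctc
Sdha at -98, chr13:74498438-74498467: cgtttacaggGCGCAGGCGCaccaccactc
Sdha at -55, chr13:74498395-74498424: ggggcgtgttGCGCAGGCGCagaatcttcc
Sdha at -10, chr13:74498350-74498379: gcgactcggtGCGCAAGCGCagtctgtcgc

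The sequences are those of the RefSeq table for GRCm38.p6, placed on GRCm39 by an exact match of the whole window. *Sdhd* and *Sdha* lie on the minus strand and *Uqcrc1* on the plus strand. The word CCGGAAG, bound by ETS factors such as GABPA, was present for 13 of the 34 members (38.2%) and 9.93% of all genes, and the word AAGATGGCG, bound by YY1, for 2 members (5.88%) and 1.64% of all genes. Each word was counted on its own, also where it could share bases with another. A match describes the letters of the window and says nothing on binding in these cells.

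The other genes of complex II encode the flavoprotein subunit (*Sdha*), the iron-sulfur subunit (*Sdhb*) and the second membrane anchor (*Sdhc*). *Sdhb* averaged 48.2 ± 4.33 CPM in TauT+/+ and 60.3 ± 9.50 CPM in TauT-/- libraries, a log2 fold change of 0.32 (edgeR adjusted p = 0.109 at a standard error of 0.110). Its 2 lowest TauT-/- values, 45.2 and 47.6 CPM, were those of the close pair, female 1 and male 1, and the other 6 were all above the highest TauT+/+ value of 55.2 CPM. *Sdhc* had the smallest log2 fold change of the complex, 0.067. It had 108.7, 113.2, 88.7 and 80.9 CPM in TauT+/+ male libraries 1 to 4 and 105.7, 84.3 and 87.4 CPM in TauT+/+ female libraries 1 to 3 (median 88.7). In TauT-/- it had 103.1, 112.2, 105.1 and 99.65 CPM in male libraries 1 to 4 and 97.7, 92.9, 95.2 and 90.7 CPM in female libraries 1 to 4 (median 98.7). The genotypes thus overlapped over nearly their whole range.

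In complex III, *Uqcrfs1* encodes the Rieske iron-sulfur protein, which takes electrons from ubiquinol, and *Uqcrc1* and *Uqcrc2* encode the core proteins that face the matrix. *Uqcrfs1* had the highest log2 fold change of the complex. It had 57.0, 48.8, 53.0 and 45.3 CPM in TauT+/+ male libraries 1 to 4, 56.1, 44.6 and 46.0 CPM in TauT+/+ female libraries 1 to 3, 73.8, 63.5, 61.1 and 64.0 CPM in TauT-/- male libraries 1 to 4 and 66.7, 52.7, 60.0 and 63.5 CPM in TauT-/- female libraries 1 to 4. The TauT-/- female library 2 alone lay within the TauT+/+ range. The log2 fold change was 0.34 (edgeR adjusted p = 0.0612 at a standard error of 0.086).

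*Uqcrc1* had 81.9, 91.2, 107 and 93.8 CPM in TauT+/+ male libraries 1 to 4, and 88.3, 84.9 and 93.5 CPM in TauT+/+ female libraries 1 to 3. It had 115, 123, 117 and 111 CPM in TauT-/- male libraries 1 to 4 and 111, 115, 113 and 96.1 CPM in TauT-/- female libraries 1 to 4. The genotypes did not overlap within the male or within the female label, while TauT-/- female 4 was below TauT+/+ male 3. Its log2 fold change was 0.31 (edgeR adjusted p = 0.0594 at a standard error of 0.077), 0.32 within the male and 0.29 within the female label. Of the 43 members, 3 (*Sdhd*, *Uqcrc1* and *Cox7b*) had every TauT-/- library above every TauT+/+ library within each sex label, where 1.13% of all tested genes did, and 0 had the reverse, where 0.597% did.

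The remaining genes of complex III code for the hinge protein (*Uqcrh*), *Uqcrc2* and small supernumerary subunits. *Uqcrq*, *Uqcrb*, *Uqcrc2*, *Uqcr10* and *Uqcrh* had log2 fold changes of 0.31, 0.25, 0.23, 0.22 and 0.17, with edgeR adjusted p between 0.111 and 0.477. *Uqcr11* was the single gene of the complex below 0, with a log2 fold change of -0.05 (edgeR adjusted p = 0.743 at a standard error of 0.087). Its levels were 62.9, 58.2, 55.6 and 59.6 CPM in TauT+/+ male libraries 1 to 4, 60.4, 45.3 and 56.2 CPM in TauT+/+ female libraries 1 to 3, 55.4, 70.7, 55.9 and 57.7 CPM in TauT-/- male libraries 1 to 4 and 49.1, 53.5, 45.3 and 47.9 CPM in TauT-/- female libraries 1 to 4. The genotypes overlapped, with TauT-/- male 2 above all other libraries. About 86.7% of the *Uqcrb* transcript matched another place in the genome at 97% identity or more over at least 100 bases, so its count may hold reads of copies or lack its own.

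**Figure D2:**
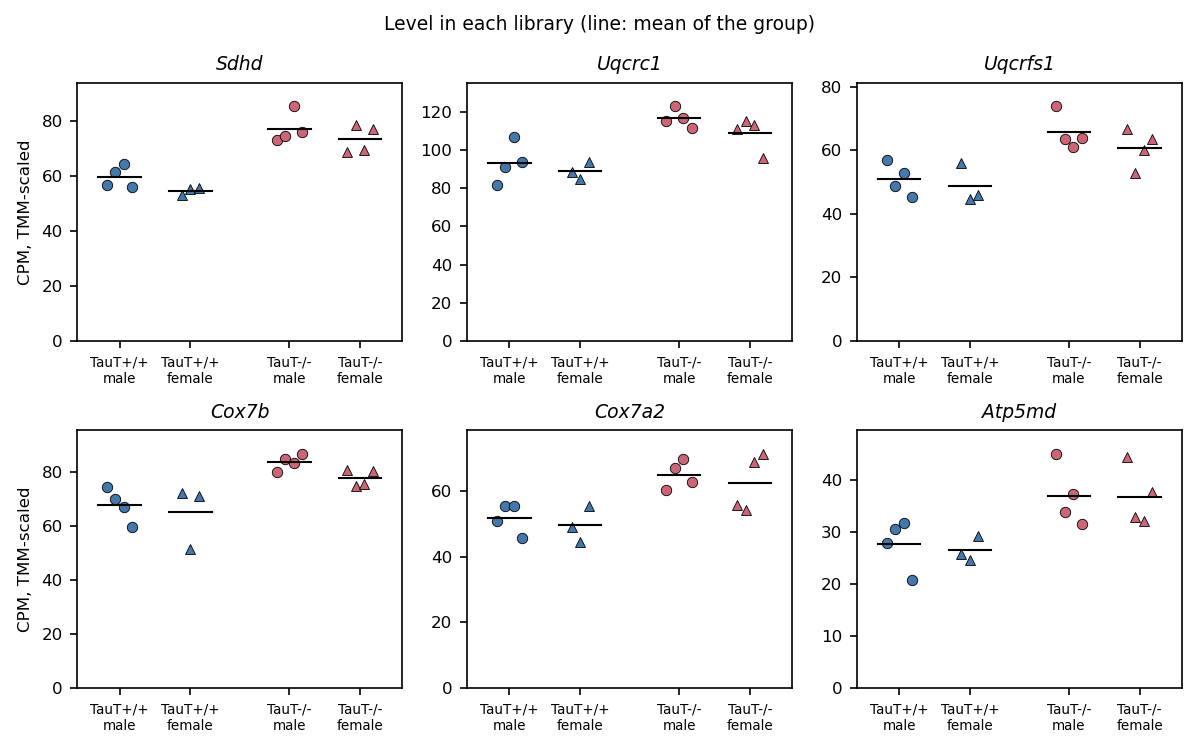
CPM after TMM scaling (y axis, from 0) of 6 members in each library, by TauT genotype and sex label (x axis), with circles for male-labelled and triangles for female-labelled libraries and a line at the mean of each group. For *Sdhd* and *Cox7b* every TauT-/- point lies above every TauT+/+ point, and for *Uqcrfs1*, *Cox7a2* and *Atp5md* they overlap.

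Complex IV holds a large set of nuclear subunits around its mitochondrially encoded core, several of them in alternative forms that are known to differ by tissue or oxygen supply. *Cox7b* encodes a small subunit without a tissue form among the members. It had 74.6, 70.0, 67.2 and 59.9 CPM in TauT+/+ male libraries 1 to 4 and 72.5, 51.7 and 71.4 CPM in TauT+/+ female libraries 1 to 3. In TauT-/- it had 80.3, 85.0, 83.6 and 86.9 CPM in male libraries 1 to 4 and 80.8, 74.9, 75.5 and 80.5 CPM in female libraries 1 to 4. All TauT-/- libraries lay above all TauT+/+ libraries, by a gap of under 1 CPM at the closest. The log2 fold change was 0.28 (edgeR adjusted p = 0.0826 at a standard error of 0.084), and 45.4% of its transcript matched another place in the genome. *Sdhd* and *Cox7b* were the 2 members with every TauT-/- library above every TauT+/+ library, as were 0.783% of all tested genes, and 0 members had the reverse, as had 0.334%.

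*Cox5a*, which encodes a subunit on the matrix side of the enzyme, averaged 61.5 ± 13.6 CPM in TauT+/+ and 81.9 ± 9.67 CPM in TauT-/- libraries (SD, n = 7 and 8 libraries), which is a log2 fold change of 0.41 (edgeR adjusted p = 0.0882 at a standard error of 0.127). The TauT+/+ libraries ranged from 48.4 to 82.5 CPM and the TauT-/- libraries from 69.8 to 99.6 CPM. Its partner *Cox5b* had 66.8 ± 12.2 and 66.7 ± 7.61 CPM and a log2 fold change of 0.0020, and 55.6% of its transcript matched elsewhere in the genome. *Cox8a*, *Cox7c*, *Cox6a1* and *Cox7a2l*, the last of which encodes a factor of respiratory supercomplexes, had log2 fold changes of 0.30, 0.29, 0.27 and 0.31. *Cox6b1* and *Cox6c* had 0.15 and 0.092. Adjusted p in edgeR was between 0.118 and 0.651 for these 6 genes. Matches elsewhere in the genome covered 85.2% of the *Cox7a2l* and 74.1% of the *Cox7c* transcript.

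*Cox4i1* and *Cox4i2* encode the common form of subunit 4 and the form known to be favoured at low oxygen, and *Cox7a2* and *Cox7a1* encode the common and the heart and muscle form of subunit 7a. *Cox4i1* had 227, 196, 190 and 149 CPM in TauT+/+ male libraries 1 to 4, 214, 147 and 183 CPM in TauT+/+ female libraries 1 to 3, 253, 230, 220 and 234 CPM in TauT-/- male libraries 1 to 4 and 239, 194, 197 and 280 CPM in TauT-/- female libraries 1 to 4. Its lowest values were those of TauT+/+ male 4 and female 2. The log2 fold change was 0.31 (edgeR adjusted p = 0.137 at a standard error of 0.119).

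*Cox4i2* had 30.7, 57.2, 12.98 and 74.2 CPM in TauT+/+ male libraries 1 to 4, 28.2, 29.7 and 31.03 CPM in TauT+/+ female libraries 1 to 3, 29.8, 60.9, 29.2 and 59.2 CPM in TauT-/- male libraries 1 to 4 and 26.1, 17.7, 54.8 and 58.2 CPM in TauT-/- female libraries 1 to 4. These are wide and overlapping groups, with both the highest and the lowest library in TauT+/+. As a share of the summed CPM of *Cox4i1* and *Cox4i2*, *Cox4i2* made 6.40% to 33.2% (median 14.5%) in TauT+/+ and 8.38% to 21.8% (median 14.4%) in TauT-/- libraries. The mean log2 ratio of *Cox4i2* to *Cox4i1*, with 0.5 CPM added to each, was -2.46 ± 0.90 (SD, n = 7) and -2.57 ± 0.64 (SD, n = 8), a difference within sex labels of -0.09 with p = 0.820 (two-sided exact permutation test) over 2450 splits within the sex labels (adjusted p = 0.820 over the 2 ratios tested). The smallest p this test can give is 0.000408.

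*Cox7a2* had 50.9, 55.3, 55.4 and 45.8 CPM in TauT+/+ male libraries 1 to 4, 49.0, 44.5 and 55.3 CPM in TauT+/+ female libraries 1 to 3, 60.3, 67.0, 69.6 and 62.7 CPM in TauT-/- male libraries 1 to 4 and 55.6, 54.1, 68.9 and 71.3 CPM in TauT-/- female libraries 1 to 4. Only TauT-/- female 2 lay within the TauT+/+ range. The log2 fold change was 0.33 (edgeR adjusted p = 0.0667 at a standard error of 0.088).

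*Cox7a1* was far lower and more scattered, with 7.97, 8.05, 0.884 and 12.7 CPM in TauT+/+ male libraries 1 to 4, 8.19, 4.11 and 1.65 CPM in TauT+/+ female libraries 1 to 3, 10.8, 4.27, 1.99 and 3.19 CPM in TauT-/- male libraries 1 to 4 and 10.2, 1.26, 3.34 and 2.69 CPM in TauT-/- female libraries 1 to 4. It had the lowest log2 fold change of all members, -0.34, with a standard error of 0.57 and an edgeR adjusted p of 0.754, and the value turned to 0.29 with the macrophage covariate. The log2 ratio of *Cox7a1* to *Cox7a2* differed by -0.60 between TauT-/- and TauT+/+, with p = 0.335 in the two-sided exact permutation test (adjusted p = 0.670). The 2 highest TauT-/- shares of *Cox7a1*, 15.5% and 15.2%, belonged to the close pair, female 1 and male 1.

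**Figure D3:**
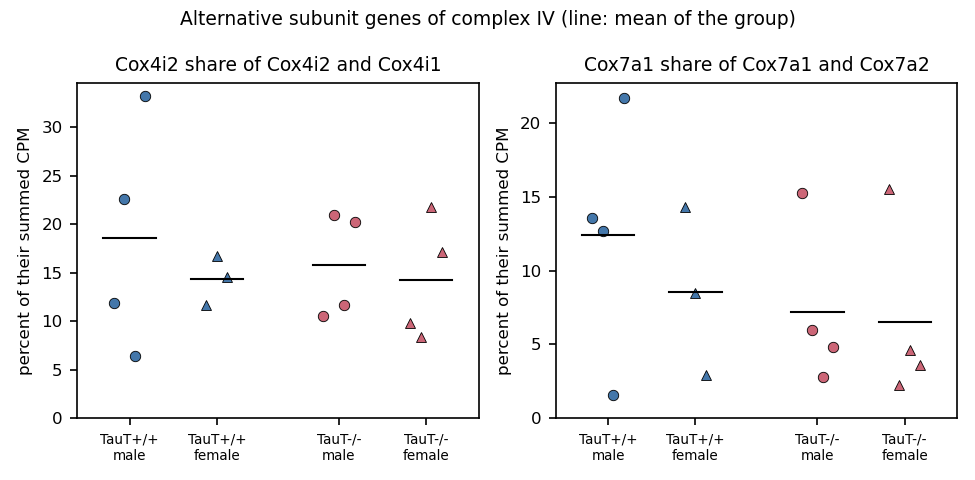
Share of *Cox4i2* in the summed CPM of *Cox4i1* and *Cox4i2* (left) and of *Cox7a1* in that of *Cox7a1* and *Cox7a2* (right), in percent (y axis, from 0) for each library by TauT genotype and sex label (x axis), with a line at the mean of each group. The genotypes overlap in both panels, with 6.40% to 33.2% in TauT+/+ and 8.38% to 21.8% in TauT-/- libraries on the left and 1.57% to 21.7% and 2.27% to 15.5% on the right.

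*Cox6b2*, known as the testis form of subunit 6b, had the highest log2 fold change of complex IV, 0.48, and the widest spread of all members (edgeR adjusted p = 0.700 at a standard error of 0.68). It had 6.35, 13.8, 4.93 and 4.95 CPM in TauT+/+ male libraries 1 to 4, 6.62, 6.88 and 8.35 CPM in TauT+/+ female libraries 1 to 3, 26.6, 7.85, 6.69 and 0.629 CPM in TauT-/- male libraries 1 to 4 and 25.9, 12.1, 1.99 and 0.969 CPM in TauT-/- female libraries 1 to 4. The TauT-/- libraries held both the highest and the lowest values, and the highest were again male 1 and female 1. Without the male-labelled library of each close pair the log2 fold change was -0.06, and with voom on all libraries it was -0.025. Its direction thus depended on the libraries kept and on the tool.

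In complex V, *Atp5a1*, *Atp5b*, *Atp5c1*, *Atp5d* and *Atp5e* encode the alpha, beta, gamma, delta and epsilon subunits of the catalytic F1 head, *Atp5g1*, *Atp5g2* and *Atp5g3* encode the same c subunit of the rotating ring, and most other members belong to the stalk or the membrane part. Per kilobase of transcript, *Atp5b*, *Atp5a1* and *Atp5e* had the highest levels of the complex (312, 170 and 168 CPM per kilobase over all libraries), and no gene of the head passed the test in edgeR, DESeq2 or voom. *Atp5b* averaged 587 ± 91.3 CPM in TauT+/+ and 612 ± 61.8 CPM in TauT-/- libraries, a log2 fold change of 0.076. *Atp5a1*, *Atp5e*, *Atp5d* and *Atp5c1* had log2 fold changes of 0.19, 0.20, 0.13 and 0.0031, and adjusted p in edgeR was between 0.253 and 0.992 for these 5 genes.

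The highest log2 fold change of complex V was that of *Atp5md*, which encodes a small membrane subunit known to bear on the dimers of ATP synthase. It had 28.0, 30.7, 31.7 and 20.9 CPM in TauT+/+ male libraries 1 to 4, 25.7, 24.7 and 29.4 CPM in TauT+/+ female libraries 1 to 3, 45.1, 33.9, 37.3 and 31.6 CPM in TauT-/- male libraries 1 to 4 and 44.5, 33.0, 32.2 and 37.8 CPM in TauT-/- female libraries 1 to 4. The lowest TauT-/- library, male 4, was just below the highest TauT+/+ library, male 3, and the others did not overlap. The log2 fold change was 0.44 (edgeR adjusted p = 0.0664 at a standard error of 0.117). *Atp5mpl*, which encodes another small membrane subunit, and *Atp5k* had log2 fold changes of 0.29 and 0.29 (edgeR adjusted p = 0.171 and 0.185).

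*Atp5pb*, which encodes the b subunit of the stator stalk, averaged 111 ± 7.76 CPM in TauT+/+ and 132 ± 15.3 CPM in TauT-/- libraries (SD, n = 7 and 8 libraries), which is a log2 fold change of 0.26 (edgeR adjusted p = 0.0895 at a standard error of 0.083). The other stalk genes had lower values, with 0.13 for *Atp5h*, 0.046 for *Atp5j* and -0.08 for *Atp5o*, the gene of the subunit that joins stalk and head, whose exons overlap a second gene annotated on the same strand. Matches elsewhere in the genome covered 31.8% of the *Atp5pb*, 50.5% of the *Atp5h* and 27.1% of the *Atp5o* transcript. *Atp5l* had the lowest log2 fold change of the complex, -0.13 (edgeR adjusted p = 0.712 at a standard error of 0.189). Its levels were 4.47, 5.15, 5.07 and 4.99 CPM in TauT+/+ male libraries 1 to 4, 6.505, 6.58 and 11.1 CPM in TauT+/+ female libraries 1 to 3, 7.31, 6.37, 4.94 and 3.54 CPM in TauT-/- male libraries 1 to 4 and 6.09, 5.66, 5.61 and 5.71 CPM in TauT-/- female libraries 1 to 4. A single library, TauT+/+ female 3, stood well above the rest. For *Atp5l*, 85.5% of the transcript matched other places in the genome, and its level may be understated.

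The c subunit genes encode the same mature protein from different precursors. *Atp5g3* made 70.0% ± 2.32 of their summed CPM in TauT+/+ and 69.3% ± 1.59 in TauT-/- libraries (SD, n = 7 and 8 libraries), and ranged from 66.4% to 72.4% over all libraries. *Atp5g1* made 18.3% ± 2.36 and 17.97% ± 1.91, and *Atp5g2* made 11.7% ± 1.62 and 12.7% ± 2.78. The shares thus differed by less than the spread between libraries. Sequence matches elsewhere covered 85.8% of the *Atp5g1* and 89.2% of the *Atp5g2* transcript, but none of the *Atp5g3* transcript.

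Levels between genes were compared as CPM per kilobase of the canonical transcript, over all 15 libraries. *Atp5b* was highest with 312 ± 39.02 CPM per kilobase, followed by *Cox4i1* with 269 ± 46.4, *Cox6a1* with 256 ± 36.7 and *Cox8a* with 232 ± 49.2 (SD, n = 15 libraries). These neighbours differ by less than the sum of their spreads. *Atp5l* and *Cox7a1* were lowest with 10.8 ± 3.09 and 12.3 ± 8.77 CPM per kilobase. *Sdhd* lay between them with 53.3 ± 8.18 CPM per kilobase, close to *Sdha* with 57.8 ± 4.68 and *Uqcrc1* with 62.2 ± 8.07. *Atp5md* and *Atp5mpl* had no matching transcript in the annotation used here and have no value per kilobase.

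The limit of 1 CPM removed 5 genes, *Cox6a2*, *Cox6c2*, *Cox7b2*, *Cox8b* and *Cox8c*. *Cox8b* and *Cox8c* had 0 counts in all libraries, *Cox7b2* had 3 counts and *Cox6c2* had 79 counts in all. *Cox6a2*, the heart and muscle form of subunit 6a, was just outside the limit with 0.984 CPM of the total on average, with 8.94 CPM in TauT-/- female 4, and was just inside it with TMM-scaled values (1.04 CPM). The kept genes nearest to the limit were *Cox7a1* with 5.46 and *Atp5l* with 5.98 CPM of the total.

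Seen by library rather than by gene, most members lay on the same side of their means in several libraries. The median over the 43 members of the log2 CPM minus the gene mean was -0.30 in TauT+/+ male 4 and -0.27 in TauT+/+ female 2, where 5 and 2 of 43 members were above their mean. It was between -0.10 and 0.059 in the other TauT+/+ libraries. In TauT-/- it was above 0 in all 8 libraries, from 0.032 to 0.23, with the highest values in male 2 and male 3, where 41 and 36 of 43 members were above their mean. TauT+/+ male 2 (0.059) lay within the range of the TauT-/- libraries and TauT+/+ male 1 (0.014) below it. The summed CPM of all members was 3430 to 4195 (median 4082) in TauT+/+ and 4102 to 4794 (median 4320) in TauT-/- libraries, which overlap.

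**Figure D4:**
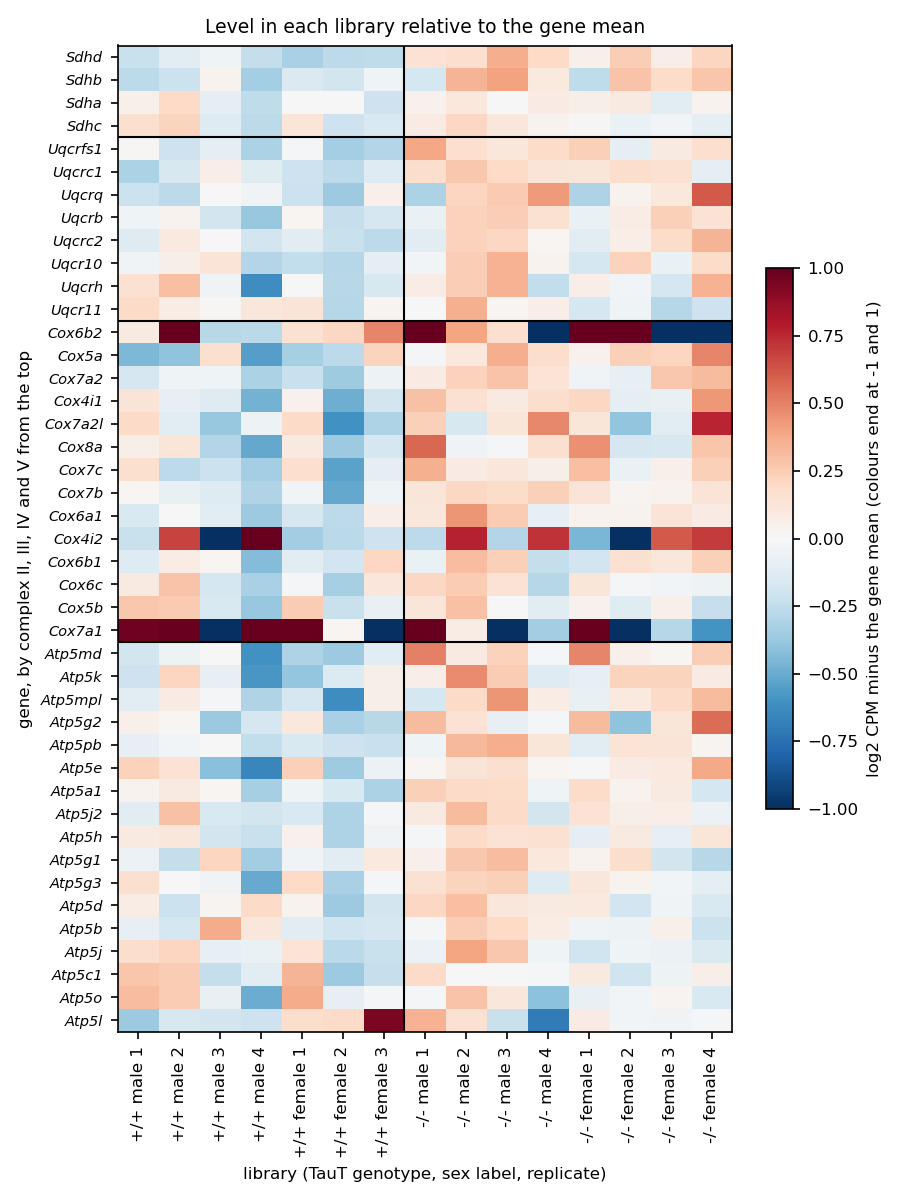
Level of each of the 43 genes (y axis, by complex and log2 fold change) in each library (x axis, by TauT genotype, sex label and replicate), as log2 CPM minus the gene mean, with red above and blue below it. TauT+/+ male 4 and female 2 are blue for nearly all genes, TauT-/- male 2 is red for 41 of 43, and *Cox6b2*, *Cox4i2* and *Cox7a1* vary most between libraries.

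The same values by complex overlapped between the genotypes in each complex. In complex II they ranged from -0.26 to 0.047 in TauT+/+ and from 0.018 to 0.24 in TauT-/- libraries. In complex III the ranges were -0.28 to 0.047 and -0.085 to 0.23, in complex IV -0.33 to 0.040 and -0.072 to 0.24, and in complex V -0.30 to 0.084 and -0.015 to 0.22. In complex II the overlap rested on TauT+/+ male 2 alone.

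**Figure D5:**
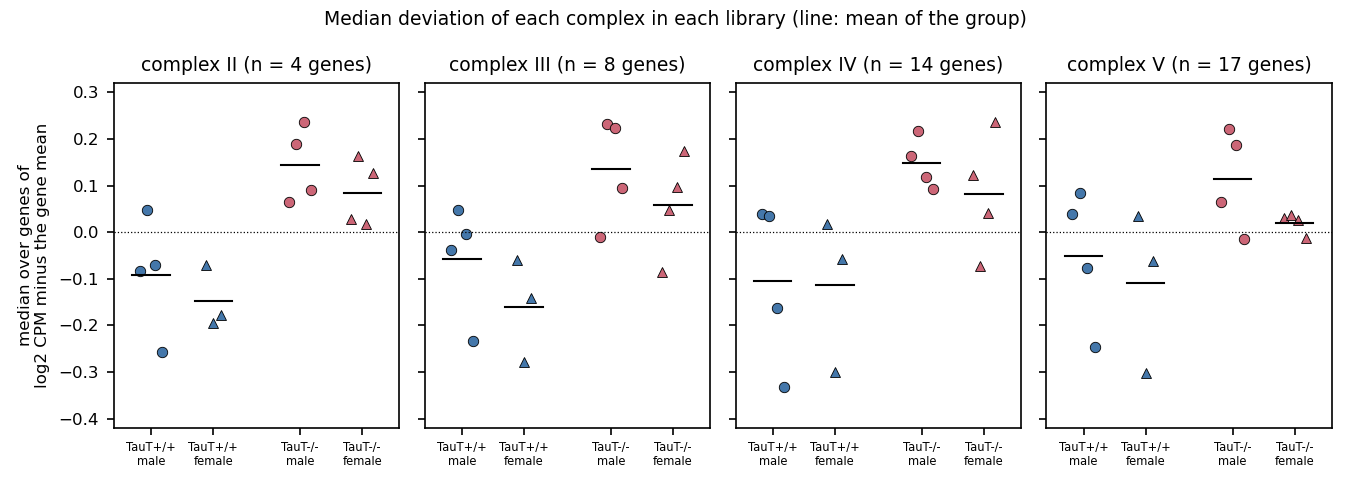
Median over the genes of a complex of log2 CPM minus the gene mean (y axis) in each library, by TauT genotype and sex label (x axis), with a line at the mean of each group and n genes as given above each panel. The group means of TauT-/- lie above those of TauT+/+ in each complex, while single libraries overlap, with TauT+/+ ranging from -0.33 to 0.084 and TauT-/- from -0.085 to 0.24.

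Most members lay above 0 under both sex labels, which may not be independent, as each close pair spans both. Within the male label 40 of 43 members had a log2 fold change above 0, with medians of 0.24, 0.23, 0.30 and 0.18 for complexes II to V, and within the female label 36 of 43, with 0.18, 0.28, 0.27 and 0.10. Over all tested genes the medians were -0.017 within the male and 0.026 within the female label. In neither label did edgeR call a member or any other gene, at 1589 genes with an unadjusted p under 0.05 in the male and 2702 in the female contrast. The difference between the labels was tested by an interaction term, in which 0 members had an unadjusted p under 0.05 and the smallest edgeR adjusted p of a member was 0.99993. The tools differed in the number of calls: DESeq2 called 9 members higher (*Sdhd*, *Uqcrc1*, *Uqcrfs1*, *Uqcrb*, *Cox5a*, *Cox7a2*, *Cox7b*, *Atp5md* and *Atp5pb*), where it called 5.34% of all tested genes higher, and limma voom called 6 (*Sdhd*, *Uqcrc1*, *Cox5a*, *Cox7a2*, *Atp5md* and *Atp5pb*), where it called 3.61%. Neither called a member lower, where DESeq2 called 6.13% and voom 2.93% of all tested genes lower. Leaving out TauT+/+ male 3 gave 5 called members in edgeR, all of them higher, in a fit that called 2.79% of all tested genes higher and 4.55% lower.

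The 2 mitochondrially encoded partners of these genes that could be tested had log2 fold changes below 0. Neither passed the test in edgeR, DESeq2 or voom, with 1 gene at an unadjusted p under 0.05 in edgeR. Of 6 such subunit genes of complexes III to V, *mt-Co2*, *mt-Co3*, *mt-Atp6* and *mt-Atp8* were listed at or near 0 in the table, and *mt-Cytb* and *mt-Co1* were tested. No genotype difference can be read for the untested genes. *mt-Cytb*, the cytochrome b of complex III, had a log2 fold change of -0.79 (edgeR adjusted p = 0.153 at a standard error of 0.318), and *mt-Co1*, the catalytic subunit of complex IV, of -0.26 (edgeR adjusted p = 0.601 at a standard error of 0.283). The summed level of the 6 genes, nearly all of it from *mt-Cytb* and *mt-Co1*, was 5055 to 16768 CPM (median 7680) in TauT+/+ libraries. In TauT-/- libraries it was 5679 to 9145 CPM (median 7208). The ratio of this sum to that of the nuclear members was 1.47 to 4.44 (median 1.88) and 1.346 to 2.15 (median 1.58). The 2 highest ratios were those of TauT+/+ male 4 and female 3.

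Further genes of the pathway were taken from lists. The 3 tested subunit genes with other symbols, *Cyc1*, *Cycs* and *Ndufa4*, had log2 fold changes of 0.21, 0.17 and -0.27, and 0 passed the test in edgeR, DESeq2 or voom (1 at an unadjusted p under 0.05 in edgeR). Of the assembly factors, 1 of 4 for complex II, 2 of 6 for complex III, 20 of 25 for complex IV and 3 of 5 for complex V had a log2 fold change above 0, with medians of -0.091, -0.13, 0.096 and 0.044. No assembly factor passed the test in edgeR, where 3 were higher and 1 lower at an unadjusted p under 0.05, and DESeq2 called 1 factor of complex IV higher and voom called 0. The smallest adjusted p in edgeR was 0.138 for *Sco1*, a copper chaperone of complex IV. Of 11 regulators of respiratory gene transcription, 8 had a log2 fold change above 0, with a median of 0.35. In edgeR 0 of them passed the test and 6 were higher at an unadjusted p under 0.05, where 11.8% of all tested genes were. DESeq2 called 4 and voom 3 higher, where they called 5.34% and 3.61% of all tested genes. No tool called one lower, where edgeR called 0.591%, DESeq2 6.13% and voom 2.93% of all tested genes lower. *Yy1*, *Esrra* and *Pprc1* had 0.41, 0.42 and 0.69 (edgeR adjusted p = 0.0728, 0.0807 and 0.0807), *Nrf1* had 0.21 and *Gabpa* had 0.024, while *Ppargc1a*, a coactivator of mitochondrial biogenesis, had under 1 CPM in both genotypes. *Gabpb1* had 0.35 and *Ppargc1b* 0.94 (edgeR adjusted p = 0.102 and 0.112), the latter at means of 0.857 CPM in TauT+/+ and 1.71 CPM in TauT-/- libraries. The 3 below 0 were *Tfam*, *Tfb2m* and *Polrmt*, with -0.0044, -0.11 and -0.11. Of 12 genes linked to oxygen supply, 9 had a log2 fold change above 0 (median 0.31) and 0 passed the test in edgeR, DESeq2 or voom, with 1 higher and 1 lower at an unadjusted p under 0.05 in edgeR. These were *Pdk1* with 0.40 and *Epas1* with -1.12 (edgeR adjusted p = 0.212 and 0.183). Without reaching that level, *Bnip3* had 0.76 and *Ndufa4l2* had -0.93 (edgeR adjusted p = 0.224 and 0.340).

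Markers of other cells that could bring respiratory transcripts were low, apart from macrophage and pericyte genes and the muscle gene *Acta1*. The 9 skeletal muscle markers summed to 13.2 to 143 CPM in TauT+/+ and 7.22 to 153 CPM in TauT-/- libraries, and 5 of them, with *Ckm* and the fast myosins among them, were under 1 CPM. *Acta1* alone ran from 0.664 to 138 CPM in TauT+/+ and from 0.280 to 143 CPM in TauT-/- libraries. Of the 5 tested, 4 had a log2 fold change above 0, with 1.39 for *Tnni2* and 0.72 for *Tnnt3* (edgeR adjusted p = 0.0594 and 0.191). The other direction was that of *Actn3*, with -0.79. The 5 brown fat markers summed to at most 1.09 CPM, with *Ucp1* at 0.010 CPM on average in TauT-/-. The 8 endothelial markers summed to at most 12.2 CPM in TauT+/+ and 44.2 CPM in TauT-/- libraries, and 5 of them were under 1 CPM. The 9 pericyte and smooth muscle markers summed to 3348 to 4695 CPM in TauT+/+ and 964 to 4978 CPM in TauT-/-, and 6 of the 8 tested had a log2 fold change below 0. Most of this sum was *Acta2*, with 2820 to 4490 CPM in TauT+/+ and 814 to 4571 CPM in TauT-/- libraries. None of these lists had a gene past the test in edgeR. At an unadjusted p under 0.05 edgeR had 2 muscle and 1 endothelial marker higher and 2 pericyte markers lower, DESeq2 called 1 muscle and 1 endothelial marker higher and 2 pericyte markers lower, and voom called the same number of muscle and endothelial markers and 0 pericyte markers. The part of pericyte genes in the members' values was not tested.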

How the data were processed

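Bulk RNA-sequencing counts of 15 libraries were used. According to the paper and the labels, the authors amplified full-length cDNA, trimmed reads with fastp 0.23.1, mapped them with STAR 2.7.9a to GRCm39 and GENCODE M31 (a text passage names the human genome) and counted them by strand with featureCounts of Subread 2.0.1. The deposited table holds raw read counts, in whole numbers, which the authors did not normalize. The authors' comparison used DESeq2 with sex and condition.

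Here counts were tested with edgeR 4.0.16 in R 4.3.3 (filterByExpr on the 4 groups, TMM, quasi-likelihood test with sex label and genotype, Benjamini-Hochberg adjustment over 18263 genes, threshold 0.05; common biological coefficient of variation 0.494). DESeq2 1.42.0 and limma voom 3.58.1 were alternatives. Fits within a sex label used 1 term per group. The scripts were tested on simulated counts. Isoform ratios were tested by exact permutation in Python 3.11.15 with SciPy 1.17.1.

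Positions and lengths come from GENCODE M39 on GRCm39, sequence copies from BLAST+ 2.17.0, and promoter windows from a RefSeq table. Any member could be named. Values per library are given for members that passed the test, that did not overlap within the sex labels, that had the highest or lowest log2 fold change of a complex or that formed a tested ratio. Members and gene lists were chosen with earlier results of these data known. No correction was made for macrophage content, since the fit with its markers is an alternative. The alternatives were other tools, normalizations, filters and covariates, a replicate block, each sex label alone and fits without single libraries, the close pairs or the libraries that went against their sex label. The filter on the sex and genotype model was added after seeing the data.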

Additional observations from a re-analysis of the deposited data

Results flagged for a closer look

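In 147 groups of 4 libraries (49 results, with at most 3 such groups each), a single library stood apart from the others by Dixon's criterion 6 times, where chance would give about 7.35, 1 in 20 groups. The gap to the nearest library as a share of the range was 0.8725 for *Atp5c1* in TauT-/- male 1 (154 CPM, high), 0.8599 for *Atp5j2* in TauT+/+ male 2 (90.5 CPM, high), 0.8406 for *Cox6b2* in TauT+/+ male 2 (13.8 CPM, high), 0.8292 for *Cox5a* in TauT+/+ male 3 (79.0 CPM, high), 0.8468 for *Uqcr11* in TauT-/- male 2 (70.7 CPM, high) and 0.8407 for *Cox6c* in TauT-/- female 1 (83.3 CPM, high). All of them were high values, and they came from 5 libraries. No difference between the sex labels in the effect of genotype was found among the members, as the interaction had a smallest edgeR adjusted p of 0.99993.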

How the results depend on the processing

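No alternative called a member lower, and the complex medians stayed above 0 in all 29, between 0.14 and 0.24 for complex II, 0.19 and 0.28 for complex III, 0.20 and 0.31 for complex IV and 0.085 and 0.18 for complex V. Members with a log2 fold change above 0 numbered 35 to 40 of 43. What did change was the number of calls, and the cause was not tested. Over all genes, lower and higher calls were 1120 and 976 with DESeq2, 535 and 659 with voom, 42 and 32 without a filter, 202 and 208 without the sex term, 0 and 0 in each sex label alone, with the macrophage covariate and without the 3 libraries that went against their sex label, 0 and 2 without the male-labelled and 0 and 7 without the female-labelled library of each close pair, and 200 lower with at least 10 counts in every library. The added filter on the sex and genotype model left 17204 genes, with 129 and 94 calls. Fits that left out 1 library called between 4 and 766 genes lower and between 8 and 470 higher, the most without TauT+/+ male 3 and the fewest without TauT+/+ female 1 or 2 (4 lower, 8 higher in both) and TauT-/- female 3 (5 and 8).

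DESeq2 called 3, 3 and 2 members of complexes III, IV and V and voom 1, 2 and 2. *Sdhd*, the 1 call in complex II, was lost (0 calls) without a filter (edgeR adjusted p = 0.0752), in the male (0.631) or female label alone (0.275), with the macrophage covariate (0.194), in both sets without 1 library of each close pair and without the 3 libraries, while its log2 fold change was 0.38, 0.37, 0.41 and 0.38 under the first 4 of these settings and 0.39 to 0.40 under the others. Leaving out 1 library gave 0 to 1 calls in complexes II, III and V and 0 to 2 in complex IV, with complex medians of 0.14 to 0.22, 0.19 to 0.26, 0.23 to 0.31 and 0.094 to 0.16.

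Members near 0 turned sign. *Cox5b* and *Atp5c1* had log2 fold changes of -0.0097 and -0.0087 with DESeq2, -0.027 and -0.027 with upper-quartile normalization, -0.012 and -0.011 without a filter, -0.037 and -0.035 with at least 10 counts in every library, -0.0025 and -0.0040 without the sex term and -0.022 and -0.021 with the added filter. In the male label alone *Atp5c1* had -0.021, *Atp5l* 0.17 and *Uqcr11* 0.018, and in the female label alone *Cox5b* had -0.081, *Atp5g1* -0.059 and *Atp5j* -0.022. *Cox7a1* had 0.29 with the macrophage covariate, *Cox6b2* had -0.025 with voom, -0.061 without the male-labelled library of each close pair and -0.091 without the 3 libraries, where *Atp5c1* had -0.022. Leaving out 1 library moved *Atp5c1* between -0.061 and 0.077, *Cox5b* between -0.083 and 0.048, *Atp5j* between -0.028 and 0.087, *Sdhc* between -0.0019 and 0.094, *Atp5l* between -0.26 and 0.029 and *Cox6b2* between -0.053 and 0.71. The *Cox4i2* to *Cox4i1* difference moved between -0.34 and 0.13 and that of *Cox7a1* to *Cox7a2* between -0.96 and -0.37.

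Same-numbered libraries of a sex label deviated together in 5 of 7 pairs (correlation over 0.1, range -0.048 to 0.612), and the cause was not tested. The labels give replicate numbers and state no pairing. The main fit therefore did not pair the samples, and it leaves these shared deviations out of account. With the replicate number as a block, edgeR called 102 lower and 69 higher genes, 1 member of complex II was called, the medians were 0.19, 0.20, 0.23 and 0.18, and the isoform differences were -0.15 and -0.53. The female-labelled libraries were the shallower ones, with 12761107 to 20781070 counts, and what depth limits cannot be told apart from the sex label.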
